A study of Mus musculus with 10 samples.

Results

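Strong Ldb1 peaks are the regions of a deposited ChIP-seq peak list whose highest read coverage in the Ldb1 ChIP library was 40 or more. By this rule 523 of 4252 peaks were strong, or 12.3%, and the other 3729 are called weaker peaks below. Chromatin immunoprecipitation (ChIP) recovers DNA bound by a protein with an antibody, and the number of sequenced fragments that stack up at a position, its coverage, measures the recovery there. Mouse embryonic stem cells were differentiated as embryoid bodies, which are floating aggregates, in serum-containing IMDM without LIF, supplied with transferrin, ascorbic acid and monothioglycerol. On day 4 cells carrying Flk1 on their surface were isolated, a population enriched for blast colony-forming cells, the common progenitors of blood and endothelium that the labels also call hemangioblast equivalents. One library came from ChIP with the anti-Ldb1 antibody N-18 and 1 control library from the same kind of cells without antibody. The labels give Ldb1+/+ and Ldb1-/- stem cells for the series and do not say which genotype the ChIP cells had. Each kind of library was made once, so none of the differences below has a replicate check or a test, and intervals cover the counting of peaks only.

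Ldb1 is an adaptor protein that binds LIM domains and does not itself contact DNA. In blood progenitors it joins the LIM-only protein Lmo2 to the DNA-binding factors Tal1, its E-protein partners and Gata1 or Gata2, and Ssbp proteins stabilise it. Ldb1 molecules also bind each other, by which distant regulatory elements and promoters can be brought together.

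RNA-seq libraries of Flk1-sorted Ldb1+/+ (WT) cells served to check that such cells express the marker and the complex. The labels give no embryoid body day for them. Of the 4 WT libraries, 1 and 2, and 3 and 4, differed by little more than sampling noise (mean chi-square per gene 1.10 and 1.06, against 28.0 to 28.5 for the other pairs), so they were taken as 2 samples. In reads per 1000 bases of transcript per 1000000 reads, Kdr, which encodes Flk1, stood at 74.7 and 75.3 in libraries 1 and 2 and 102.6 and 103.7 in libraries 3 and 4. On the same scale Ldb1 ranged over the libraries from 46.2 to 51.6, Ssbp3 from 45.5 to 62.8, Lmo2 from 15.3 to 20.8, Tal1 from 11.4 to 17.8 and Gata2 from 6.09 to 8.38. Ldb2 (5.90 to 9.41), Lmo4 (5.21 to 8.89), Ssbp2 (3.87 to 5.35) and Runx1, a later factor of blood formation (2.26 to 4.73), were also present in every library. Of the other markers of the sorted cells, Pecam1 ranged from 39.2 to 96.9, Cdh5 from 20.9 to 39.4 and Etv2 from 4.22 to 12.6. Among markers of other cells, the pluripotency genes Pou5f1 (62.3 to 220.8) and Nanog (56.4 to 123.3) stood above Kdr in libraries 1 and 2 and below it in libraries 3 and 4. Afp, Ttr and Pax6, which mark endoderm and neuroectoderm, stayed at or below 1.96, and Sox1 matched no gene of the table. Whether undifferentiated cells were also present in the ChIP material was not tested.

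The coverage that defined the strong peaks ran from 40 to 243 with a median of 56 reads. Of the 523 peaks, 228 (43.6%) reached 60, 107 (20.5%) reached 80, 54 (10.3%) reached 100 and 4 reached 200. The members were chosen by these values, which are therefore a description. The 10 highest peaks held 5.89% of the summed highest coverage of all strong peaks.

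The highest peak of the list lay at chr4:114768020-114768970 (mm9, as are all positions here), with a coverage of 243 in ChIP and 11 in control. The authors' deposited table gives it an adjusted p of 3.11e-54, the smallest of the list. A second strong peak stood 39.2 kb from it at chr4:114728870-114729710, with a ChIP coverage of 131 and one of the highest control coverages, 32. The second highest peak, chr8:87224880-87226020, reached 228 in ChIP and 23 in control. It had a strong neighbour 1.49 kb away, with a ChIP coverage of 101. The third, chr8:122893570-122894460, had 206 in ChIP and 12 in control, and the ninth, chr8:122895400-122896231, with 188 and 10, lay 1.80 kb from it. The fourth was chr15:99494860-99495800 (204 in ChIP, 9 in control). The fifth was chr9:107884778-107885610 (197 and 25). The sixth was chr8:74791978-74792988 (196 and 15), which had no strong peak nearer than 1569 kb. Of equal height were chr1:182780580-182781570 (193 and 28) and chr8:125243339-125245399 (193 and 29). The tenth was chr2:31983230-31984102 (181 and 21). Of these 10 peaks 5 were on chromosome 8, and 5 had another strong peak within 5 kb.

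At the boundary of the rule the ranges of control coverage overlapped, while its median was lower just inside than just outside. The 24 peaks at a coverage of exactly 40 had control coverages of 2 to 23 with a median of 5, and a median width of 689.5 bases. The 31 peaks just outside, at 39, had control coverages of 2 to 22 with a median of 8 and a median width of 652 bases. Examples inside are chr4:6264388-6264920, chr13:84787480-84788041 and chr19:40887740-40888400, each with 40 in ChIP and 2 in control. Just outside stood chr1:92185900-92186910, chr2:116824440-116825130 and chr10:79409350-79410210, each with 39 and 2.

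Control coverage was not used to choose the strong peaks, but it limits which peaks the authors listed. Its median was 6 reads in strong peaks (95% order-statistic interval of the median 5 to 7) and 4 in weaker peaks, with middle 50% ranges of 4 to 13 and 3 to 7. A control coverage of 13 or more was found in 146 strong peaks (27.9%), 102 weaker peaks (2.74%) and 248 of all peaks (5.83%). The value 13 is the upper quartile of the strong peaks and was chosen after seeing the data. This choice fixes the share in strong peaks. Among weaker peaks the share with 13 or more was 0% at a ChIP coverage of 20 to 24, 2.72% at 25 to 29 and 14.4% (78 of 542) at 30 to 39. The median control coverage in these ranges was 4, 5 and 5. The list itself sets part of the gap between strong and weaker peaks. No peak with a ChIP coverage of 20 to 24 had a control coverage above 10, none at 25 to 29 above 14 and none at 30 to 39 above 22, since the list holds peaks only up to an adjusted p of 0.00998 in the authors' deposited table.

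**Figure D1:**
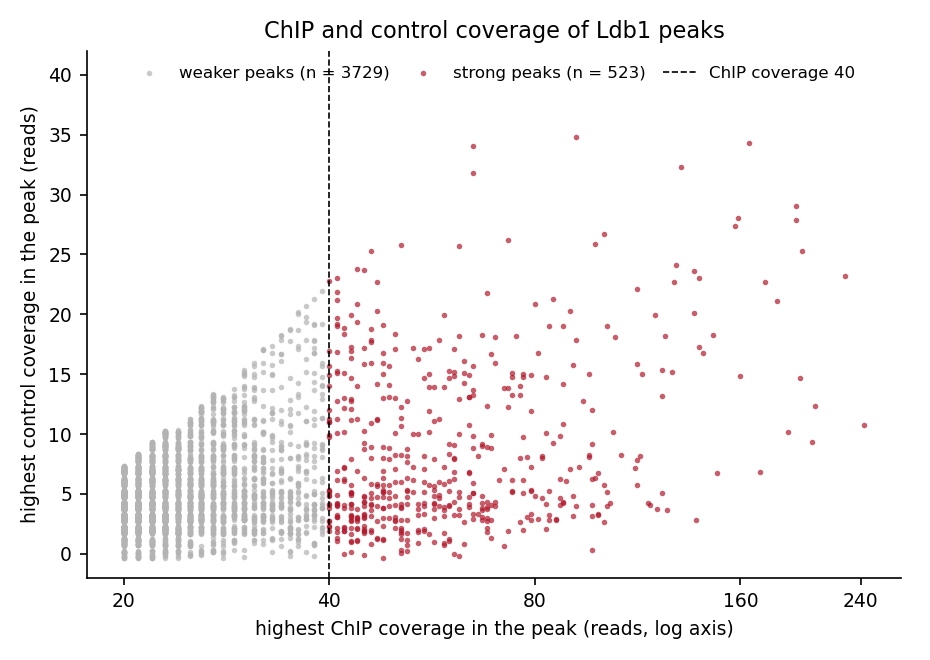
Highest control coverage (vertical axis, reads, spread by a small random offset) against highest ChIP coverage (horizontal log axis, reads) for each peak, with strong peaks in red and weaker peaks in grey. The weaker peaks end along a slanted upper edge, while strong peaks reach control coverages of up to 35; their most frequent control values are 4 to 6 (147 peaks) and 0 to 3 (128 peaks).

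Among strong peaks control coverage had a main group at low values and a shoulder above it. It was 0 to 3 in 128 peaks, 4 to 6 in 147, 7 to 9 in 59 and 10 to 12 in 43. It then stood at 13 to 15 in 55 peaks, 16 to 18 in 40, 19 to 21 in 21 and 22 to 35 in 30. The 146 peaks with 13 or more were wider than the other 377, at a median of 789 against 712 bases, and had a median ChIP coverage of 62.5 against 54 reads. High control coverage was most frequent in the tallest peaks. It was found in 31 of the 54 peaks with a ChIP coverage of 100 or more (57.4%), against 49 of 193 (25.4%) at 40 to 49, 16 of 102 (15.7%) at 50 to 59, 36 of 121 (29.8%) at 60 to 79 and 14 of 53 (26.4%) at 80 to 99. The tallest range stood apart, and the lower ones showed no steady rise. The control median was 15 in the 54 tallest peaks and 5 at 40 to 49.

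The strong peaks with the highest control coverage were chr17:3083870-3084840, with 92 reads in ChIP and 35 in control, and chr8:90357018-90357798, with 165 and 34. Next were chr7:89919590-89920596 (65 and 34), the peak at chr4:114728870-114729710 named above, and chr8:73222498-73223577 (65 and 32). At 4 of these 5 positions the ratio of ChIP to control coverage defined below was between 1.89 and 4.00, and it was 4.74 at the peak of 165 reads, so all 5 lay below the median of the set. The 5 were chosen by control coverage, by which the ratio divides. At the other end 10 strong peaks (1.91%) had a control coverage of 0, against 2.59% of all peaks. The tallest of these 10, named after its value was seen, was chr1:75442377-75443290, with 97 reads in ChIP.

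The ratio of ChIP to control coverage, with 1 added to each, had a median of 8.33 in strong peaks (95% interval of the median 7.75 to 9) and 4.50 in weaker peaks. The rule fixes much of this, since it used the ChIP coverage. The ratio spread widely within the set, from 1.71 to 98.0 with a middle 50% range of 4.87 to 13.8. It was 10 or more in 217 strong peaks (41.5%), against 13.1% of all peaks, and under 3 in 48 (9.18%), against 18.7% of all peaks. The rule fixes much of these differences as well. No source used here says whether the control library was scaled to the depth of the ChIP library, so ratios compare peaks with each other and are no absolute enrichment. The median was 3.71 in the 146 peaks with high control coverage and 11 in the other 377. This split fixes much of that difference, since the ratio divides by control coverage.

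The authors' adjusted p was set by both coverages, since equal coverages always carried the same value. In the authors' deposited table the median of the strong peaks was 6.62e-10 and that of the weaker peaks 0.000773, and 22 strong peaks had a value above 0.001. The 523 peaks with the smallest adjusted p shared 408 (78.0%) with the strong peaks, which made up 12.3% of all peaks. The 115 strong peaks left out had a median ChIP coverage of 45 and a median control coverage of 15. The rule fixes much of the difference in medians of p and of the overlap, since it used the ChIP coverage.

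Strong peaks had a median width of 729 bases (95% interval of the median 716 to 740), with a middle 50% range of 653.5 to 830 and extremes of 334 and 2170 bases. Weaker peaks had a median of 630 and a middle 50% range of 534 to 810 bases. Their median was 590 bases at a ChIP coverage of 20 to 24, 690 at 25 to 29 and 689.5 at 30 to 39. The weaker peaks nearest to the limit were thus as wide as the strong peaks at 40 to 49. Widths rose with height within the strong set, from a median of 690 bases at a ChIP coverage of 40 to 49 through 718 at 50 to 59, 759 at 60 to 79 and 800 at 80 to 99 to 901.5 at 100 or more. Both measures come from the same ChIP coverage and are not independent. Peaks of 1000 bases or more made up 12.4% of strong and 13.1% of weaker peaks. By height their share was 10.5% at a ChIP coverage of 20 to 24, 18.1% at 25 to 29, 15.9% at 30 to 39, 8.81% at 40 to 49, 7.84% at 50 to 59, 15.7% at 60 to 79, 15.1% at 80 to 99 and 24.1% at 100 or more, so it did not follow height in 1 direction. Among strong peaks it was 23.3% where control coverage was 13 or more and 8.22% in the others. The point of highest coverage lay within 100 bases of the midpoint in 442 strong peaks (84.5%), at a median distance of 34.5 bases. This distance was not computed for weaker peaks.

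**Figure D2:**
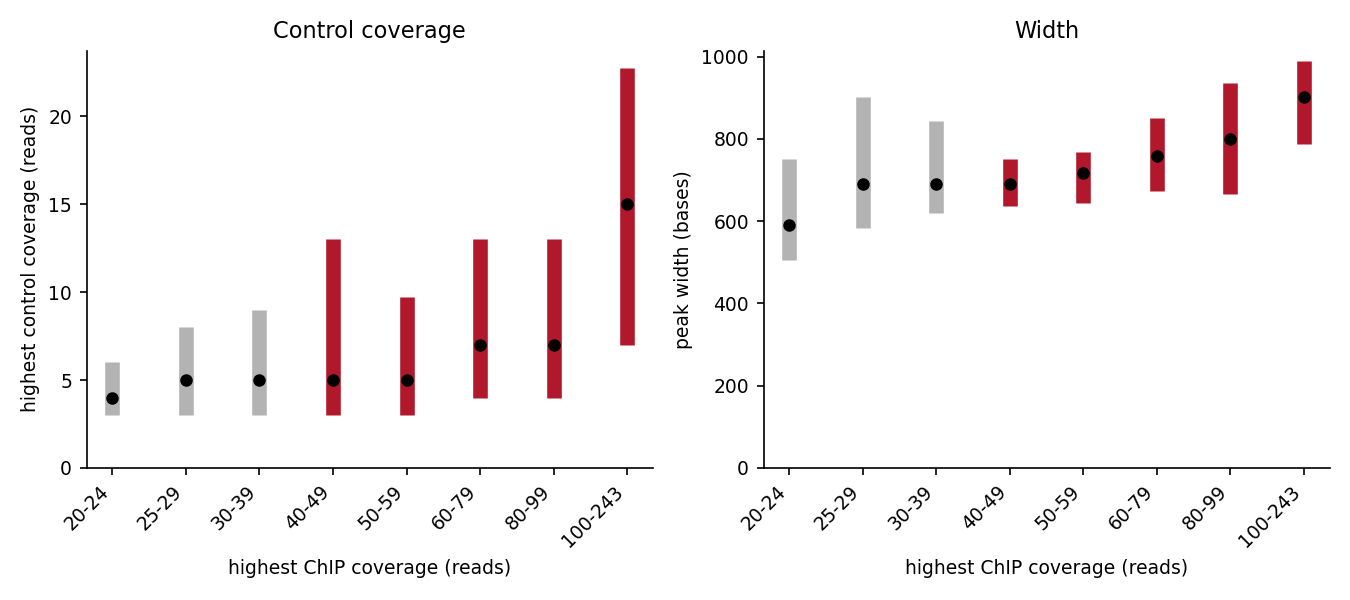
Control coverage (left, reads) and peak width (right, bases) by range of highest ChIP coverage; points are medians, bars span the middle 50% of peaks, red marks strong and grey weaker peaks. The control median is 5 at 40 to 49 and 15 at 100 or more, and the width median goes from 690 to 901.5 bases over the same ranges.

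The widest strong peak was chr11:120091070-120093240, 2170 bases long with 51 reads in ChIP and 0 in control. Its highest point lay 729 bases from its midpoint, the largest such distance of the set. It was followed by the peak at chr8:125243339-125245399 (2060 bases), chr6:113025948-113027964 (2016 bases, 44 in ChIP and 19 in control), chr11:95695180-95697080 (1900 bases, 44 and 1) and chr8:124845340-124847200 (1860 bases, 139 and 23). The widest peaks thus included both tall and low ones. The narrowest was chr7:149642547-149642881, 334 bases long, with 40 in ChIP and 23 in control. The next were chr7:82073449-82073844 (395 bases, 41 and 3), chr4:42892946-42893375 (429 bases, 55 and 4), chr13:55291585-55292032 (447 bases, 41 and 23) and chr3:101969689-101970170 (481 bases, 57 and 3). All 5 had a ChIP coverage of 40 to 57.

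Strong peaks were found on every autosome and on the X chromosome. Chromosome 11 held the most, 72, or 13.8% of them (Wilson 95% interval 11.1 to 17.0), yet it held 840 weaker peaks, 22.5% of that set (21.2 to 23.9). Of its own 912 peaks 7.89% were strong (6.32 to 9.83), the lowest share of all chromosomes, against 451 of 3340 (13.5%, 12.4 to 14.7) on the others. By height, chromosome 11 took 19.9% of peaks at a ChIP coverage of 20 to 24, 26.8% at 25 to 29, 26.8% at 30 to 39, 16.6% at 40 to 49, 15.7% at 50 to 59, 9.09% at 60 to 79, 9.43% at 80 to 99 and 14.8% at 100 or more. Chromosome 15 had the highest share of strong peaks, 27 of 127 (21.3%, 15.0 to 29.2), and chromosome 2, with 47, the third largest number. The X chromosome held 4 strong of 22 peaks. Chromosome lengths and copy numbers were not used, so these are shares of listed peaks and not densities.

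**Figure D3:**
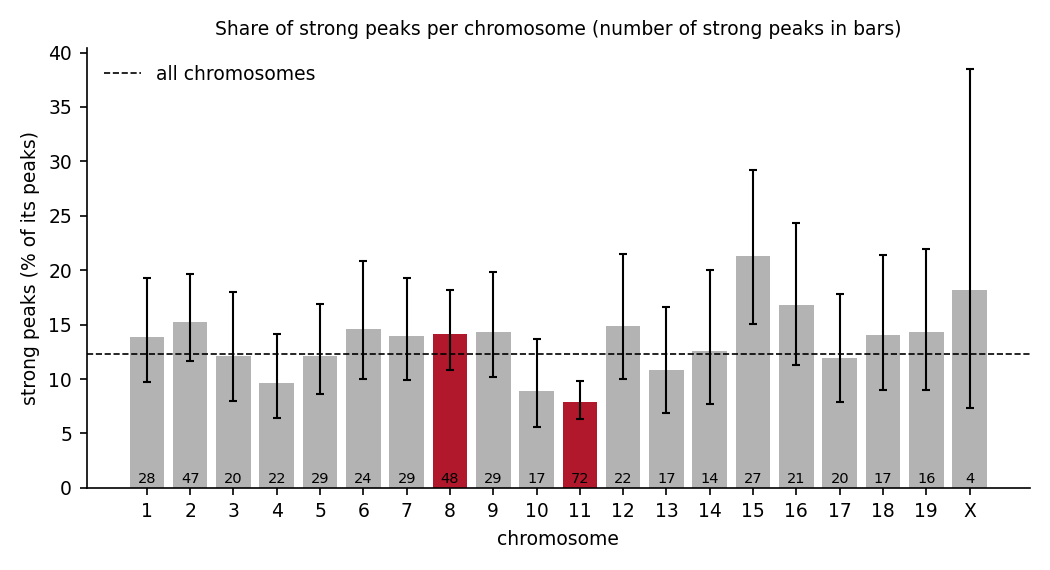
Strong peaks as a percent of each chromosome's listed peaks, with Wilson 95% intervals as error bars, the number of strong peaks inside each bar and the share over all chromosomes (12.3%) as a dashed line. Chromosome 11 (red) stands lowest at 7.89%, chromosome 8 (red) at 14.1% and chromosome 15 highest at 21.3%.

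Chromosome 8 held 48 strong peaks, 9.18% of the set (Wilson 95% interval 6.99 to 11.96), against 7.83% of weaker peaks. Its share went from 5.70% of peaks at a ChIP coverage of 40 to 49 to 12 of 54 (22.2%) at 100 or more, but was 5.66% at 80 to 99. Control coverage was high there. The median over its strong peaks was 13, against 6 in strong peaks of the other chromosomes, and 25 of 48 (52.1%, 38.3 to 65.5) had 13 or more against 121 of 475 (25.5%). In weaker peaks the control medians were 5 on chromosome 8 and 4 elsewhere. Chromosomes 18 (8 of 17), 7 (13 of 29) and 15 (10 of 27) also had large shares of strong peaks with high control coverage, while chromosomes 19 (1 of 16), 16 (2 of 21) and 5 (3 of 29) had small ones. The part of copy number, open chromatin or sequence in the control coverage was not tested.

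On chromosome 8, 20 of the 48 strong peaks lay between 120 and 130 Mb, among 61 peaks of any height. Of the peaks there 32.8% were strong, against 10.0% of the other 279 peaks of the chromosome. The stretch was chosen after seeing where strong peaks were dense, which fixes much of this difference. Its 20 strong peaks had ChIP coverages of 43 to 206 with a median of 70.5 and control coverages of 1 to 29 with a median of 13.5. In the 28 strong peaks elsewhere on the chromosome the medians were 61.5 and 12.5, so the high control coverage was not limited to that stretch. When each chromosome was divided into stretches of 5 Mb, 481 held a peak and 262 a strong peak. The stretch at 120 to 125 Mb of chromosome 8 had 13, the most. Next, with 8 each, were those at 90 to 95 Mb of chromosome 16 and at 70 to 75 and 100 to 105 Mb of chromosome 11. The 2 on chromosome 11 held 45 and 92 peaks in all, that on chromosome 16 only 26. The 8 on chromosome 16 had ChIP coverages of 43 to 67, and 0 of them had another peak within 5 kb. The stretches were chosen after seeing the data.

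Most strong peaks stood alone. Measured between midpoints, the nearest other peak of any height was at a median of 62.4 kb (95% interval of the median 52.1 to 75.9) and the nearest strong peak at a median of 751 kb (621 to 911). For weaker peaks the nearest other peak was at a median of 77.2 kb (73.1 to 82.6). Another peak lay within 5 kb of 69 strong peaks (13.2%, Wilson 95% interval 10.6 to 16.4) and of 413 weaker peaks (11.1%, 10.1 to 12.1). Within 1 kb the order was the other way, with 3 strong peaks (0.574%, 0.195 to 1.67) and 109 weaker peaks (2.92%, 2.43 to 3.51). The midpoints of peaks that do not overlap cannot lie nearer than the widths allow. The median width was 729 bases in strong and 630 in weaker peaks, both below 1 kb. The part of width in this order was not tested. Of the 69, 28 had another strong peak within that distance and 41 had weaker peaks only. On chromosome 8 another peak lay within 5 kb of 13 of 48 strong peaks (27.1%), against 56 of 475 (11.8%, 9.19 to 15.0) on the other chromosomes. For weaker peaks these shares were 13.4% and 10.9%. Of the 13 strong peaks on chromosome 8, 10 were among the 20 at 120 to 130 Mb, the stretch chosen above. The other 3 were among the 28 strong peaks elsewhere on the chromosome. Without chromosomes 8 and 11 the share of strong peaks with another peak within 5 kb was 11.2%. Among peaks with a ChIP coverage of 100 or more, 13 of 54 had another peak within 5 kb (24.1%, 14.6 to 36.9). In the lower ranges of strong peaks the share was 9.92% to 15.7%. Chromosome 8 held 12 of the 54 tallest peaks and most of these 13, so height and chromosome are mixed here. A link of height with close neighbours was not tested. The median ChIP coverage was 56 in the 69 peaks with a close neighbour and 55.5 in the other 454, while the means were 76.8 and 64.3 and the 95th percentiles 193.4 and 121.7.

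**Figure D4:**
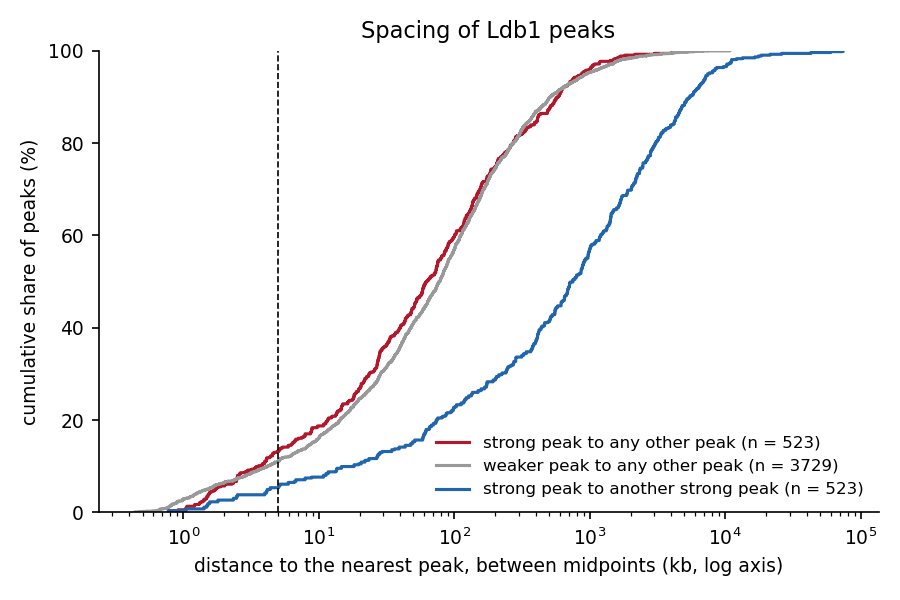
Cumulative share of peaks (vertical axis, %) whose nearest other peak lies within the distance on the horizontal log axis (kb, between midpoints); the dashed line marks 5 kb. At 5 kb the curves stand at 13.2% for strong peaks to any peak, 11.1% for weaker peaks to any peak and 5.35% for strong peaks to another strong peak.

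With gaps of at most 10 kb, 40 strong peaks formed 19 groups, 17 of 2 peaks and 2 of 3, and 483 stood outside any group. Chromosome 8 held 7 of the 19 groups with 15 of the 40 peaks. The heights within a group could differ: the highest peak had 1.02 to 4.69 times the ChIP coverage of the lowest, with a median of 1.83. The closest pair was on chromosome 9, where the peak of 197 reads named above and chr9:107885620-107886320, with 42 reads, had midpoints 0.776 kb apart. These 2 regions nearly touched, and no 2 peaks of the list overlapped. The next closest were chr8:125188940-125189720 and chr8:125190030-125190717, with 48 and 49 reads in ChIP at a distance of 1.04 kb. Then came chr13:43286930-43287760 and chr13:43288386-43289151, with 69 and 79 at 1.42 kb.

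Both groups of 3 contained peaks of unequal height. On chromosome 2, chr2:26427170-26427950, chr2:26433780-26434550 and chr2:26438960-26439690 had ChIP coverages of 87, 52 and 42 and control coverages of 10, 9 and 15. On chromosome 8, chr8:124833028-124833810, chr8:124837000-124837820 and chr8:124845340-124847200 had 127, 76 and 139 in ChIP and 15, 14 and 23 in control. The first group spanned 11.8 kb and the second 12.9 kb between the outer midpoints. Genes near these regions and their sequences are not given, because no mm9 annotation or genome was used here.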

How the data were processed

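Per the file headers, the deposited peak list gives positions, the highest coverage in each library as a whole-number signal, and the adjusted p-value that the authors assigned. The submitters' processing notes name the build mm9 and the tool DESeq. The sources used here do not give the peak caller, aligner, fragment extension, library depth, scaling of the control, or whether starts count from 0 or 1, so the depth behind each coverage is unknown. The deposited RNA table holds raw counts per Ensembl gene. Total counts were 11494938 to 13214733 per WT library, and 20362 of 21868 genes had a symbol. WT levels are counts per 1000 bases of the deposited transcript length per 1000000 counts.

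ChIP coverages in the list begin at 20 and adjusted p-values end at 0.00998, and equal coverages always carry the same p-value. Distances join midpoints. Shares carry Wilson and medians order-statistic intervals of 95%, for counting error only. The scripts were tested on simulated peaks. Python 3.11.15 with numpy 2.4.6, pandas 2.3.3, scipy 1.17.1 and matplotlib 3.10.9 was used. The members and lists were chosen with earlier results of these data known. Peaks named were the 10 highest, the 5 with most control coverage, the 5 widest and 5 narrowest, 3 on each side of the rule, the 3 closest pairs and all groups of 3. Alternatives were other coverage limits, a limit on ChIP minus control or on p, other distances and added values, and omission of chromosomes 8 and 11. Positions of the gene tables are on GRCm38.p6 and were not used.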

Additional observations from a re-analysis of the deposited data

How the results depend on the processing

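No paired analysis was possible because the peak results come from 1 ChIP and 1 control library and from no test. The planned comparison of KO with WT for genes nearest to strong peaks, with its alternatives, was not run, since no mm9 annotation was used. Of 50 values under other settings 31 stayed within 1.5 times the count or within the 95% interval of the value reported, and 19 moved. Limits of 30, 50 and 60 in place of 40 gave 1065, 330 and 228 peaks, median widths of 710, 760 and 790 bases, and median ratios of ChIP to control coverage of 6.60, 9.49 and 9.54. At a limit of 60 the median control coverage was 8 and the share on chromosome 8 was 12.7%. The share on chromosome 11 was 20.4% at 30 and 10.5% at 60. The median ratio was 10.45 for ChIP minus control of 40 or more, 10.4 for an adjusted p of 1e-6 or less, and 5.67 with 5 added to each coverage. Another peak was within 2 kb of 5.74% and within 10 kb of 18.7% of strong peaks, and another strong peak within 5 kb of 5.35%. Using points of highest coverage or edges in place of midpoints, both chosen after seeing the data, gave 13.4% and 14.1% within 5 kb.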

Other observations

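The starts of 320 of 523 strong peaks (61.2%) and of 2498 of 3729 weaker peaks (67.0%) were multiples of 10, while points of highest coverage are given to the base. The widths of 242 strong peaks were multiples of 10, which was not counted for weaker peaks. Of the strong peaks with a control coverage of 0, the tallest had a strong neighbour on the same stretch of chromosome 1, chr1:75446750-75447680, with 52 reads in ChIP and also 0 in control, at a distance of 4.38 kb. Both were chosen after their values were seen.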
